A study of Mus musculus with 9 samples.

Results

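The nuclear genes for the subunits of oxidative phosphorylation were followed complex by complex in 3 pools of mouse motor neurons. They were chosen by symbol alone. A gene belonged when its symbol began with Nduf followed by a, b, c, s or v and a digit, was Sdha, Sdhb, Sdhc or Sdhd, began with Uqcr or Atp5, or began with Cox and a digit from 4 to 8. The rule gave 81 of the 18193 genes that the array annotation named from a probe set for 1 gene. Sorted by symbol, 35 belong to complex I, 4 to complex II, 8 to complex III, 17 to complex IV and 17 to complex V. Where a gene had several probe sets, the one that was brightest on average over the 9 arrays was read.

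Oxidative phosphorylation is carried out in the inner mitochondrial membrane. Complexes I and II pass electrons from NADH and succinate to ubiquinone, complex III passes them on to cytochrome c and complex IV to oxygen. Complexes I, III and IV move protons out of the matrix, and complex V, the ATP synthase, makes ATP as they return. Neurons draw most of their ATP from this route, and large motor neurons with long axons are counted among the cells with a high demand. A few subunits of complexes I, III, IV and V are encoded in mitochondrial DNA and fall outside the symbol rule.

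The neurons came from untreated wild-type male C57BL/6J mice at postnatal day 7. They were cut by laser from cryosections 12 µm thick that had been stained with cresyl violet. L5 denotes motor neurons of the fifth lumbar segment, which serve limb muscles, OMN those of the oculomotor nucleus, which move the eye, and DL those of the dorsolateral nucleus of the lumbosacral cord, which serve pelvic sphincter muscles. In amyotrophic lateral sclerosis, limb motor neurons are lost early while oculomotor and sphincter motor neurons are relatively spared. Each animal gave about 200 neurons per pool, at least 1.5 ng of RNA was amplified, and each pool was hybridised to 3 Affymetrix arrays. Nothing beyond the stain and position is given for how a motor neuron was recognised, the pools are normal young animals rather than a disease model, and each array reads a mixture of whatever lay in the cut tissue.

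Values are array intensities on a linear scale, scaled by the authors so that every array has the same trimmed mean. A level can therefore be compared between arrays for 1 gene but not between genes. Fewer cells of a type in the cut tissue and less RNA per cell cannot be told apart. Between 67.0% and 71.5% of genes exceeded the noise level of 18.3 on an array, set by the brightest reading among 27 controls for bacterial transcripts. Summed motor neuron markers came to 66399 to 67913 on the L5 arrays, with lower sums of 46159 to 49413 for OMN and 44809 to 53716 for DL. All 12 of these markers were measured, and at or below noise on every array of a pool were Chat in L5 and Mnx1 in OMN. Bright genes weigh most in such sums, and Nefl alone read at least 19727 on every L5 array. The log2 difference was above 0 for 9 of the 12 between L5 and OMN and for 9 between L5 and DL. Isl1 went strongly the other way. No L5 array exceeded 749.5 for it, while every OMN array reached at least 2084 and every DL array at least 2299. Chat, the enzyme of acetylcholine synthesis, read 1.2 to 24.5 on the 9 arrays, at or near noise throughout. Slc18a3, the vesicular acetylcholine transporter, read 774 to 3574 and was above noise on every array. Markers of oligodendrocytes and myelin summed to 23499 to 26069 in DL, 17683 to 18555 in L5 and 14605 to 16215 in OMN. Inhibitory interneuron markers, 4 genes, summed to 5017 to 5875 on the DL arrays and to at most 2674 on any other array. Sums of 8 astrocyte markers were lowest for OMN, 16579 to 17436, with 17111 to 19195 for DL and 18380 to 20655 for L5. Among them Gfap, the astrocyte filament protein, read 12.2 to 22.7 on the OMN arrays, at least 233 on the L5 arrays and at least 1074 on the DL arrays. Schwann cell and sensory neuron markers, 3 of 6 measured, summed to 1869 to 2237 in L5 and 1355 to 2443 in DL but to at most 190.7 in OMN. Different genes made up these sums. In L5 Pmp22 read 1863 to 2202 and Pirt 5.4 to 26.1, whereas in DL Pmp22 read 720 to 1077 and Pirt 630 to 1348. Scn10a was at or below noise on every array. The part of these markers in the subunit results was not tested. For RNA quality there are 2 controls. The 3′ probe set of Gapdh exceeded the 5′ one by a factor of 3.27 on DL array 1 and 3.75 on DL array 3, against 2.33 to 2.67 on the other 7. The same ratio for actin was 0.934 on DL array 1, within the 0.807 to 0.934 of the other 7, and 0.995 on DL array 3. Actin thus did not set DL array 1 apart.

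Most subunit genes were brighter in L5 than in both other pools by a modest amount. The median log2 difference over the 81 genes was 0.33 ± 0.12 (SD over the 3 pairs of equal replicate number) between L5 and OMN, a ratio of 1.26. Between L5 and DL it was 0.39 ± 0.21, a ratio of 1.31. Between DL and OMN it was -0.028 ± 0.11. Over all 18193 genes the same medians were 0.014, 0.065 and -0.036. The difference was above 0 for 70 of 81 genes between L5 and OMN and for 72 of 81 between L5 and DL, against 51.6% and 56.6% of all genes and 70.4% and 63.7% of the 1202 genes with a mean intensity above 2000. Both comparisons use the same L5 arrays. Among 25 members of a list of core subunits, 22 and 23 were above 0, with medians of 0.33 and 0.41. That list is wider than the catalytic subunits, since it also holds Sdhc, Sdhd, Atp5o, Cox4i1, Cox5a and Cox5b. Among 18 members of tissue isoform sets 13 were above 0 in each, with medians of 0.18 and 0.33.

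Single genes did not pass the test between L5 and either other pool. With limma, which shares information on the spread between genes, and with p adjusted by Benjamini-Hochberg over all 18193 genes, 0 of 81 were called at an adjusted p under 0.05 between L5 and OMN and 0 between L5 and DL. Of all genes, L5 was called above OMN for 0.951% and below it for 1.2%, and above DL for 1.25% and below it for 1.27%. Without adjustment 22 and 30 members had p under 0.05, beside 16% and 18.9% of all genes. Of the 64 members with a mean intensity above 2000, 17 and 24 did, beside 20.1% and 20.5% of the 1202 genes in that range. Typical standard errors were large beside the differences, with a median of 0.19 on the log2 scale for the members between L5 and OMN. Between DL and OMN 1 of 81 was called, Cox6b2, lower in DL, where 1.36% of all genes were called higher and 1.64% lower. An overall test for any difference among the 3 pools also called 1 of 81, again Cox6b2 at an adjusted p of 0.0494 in limma, against 4.47% of all genes.

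Calls of single genes depended on how the spread was estimated. When limma lets the spread follow the intensity, with robust estimation, the median standard error was 0.12, and 28 members were called higher in L5 than in OMN and 32 higher than in DL, with 0 lower in either. The same setting called 2.93% and 3.41% of all genes higher in L5 and 2.27% and 2.89% lower. Between DL and OMN it called Cox6b2 lower and Cox7b2 higher in DL, where the shares of all genes were 2.5% and 2.3%. Among the 1202 genes with a mean above 2000, the range that holds 64 of the 81 members, 17.1% were called higher in L5 than in OMN. Against DL 16% of these genes were called higher in L5. Of the 28, 13 belonged to complex I, 1 to complex II, 3 to complex III, 4 to complex IV and 7 to complex V. Of the 32, the counts were 13, 0, 3, 4 and 12.

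The ordering of the arrays showed the same pattern without a model. For 52 of 81 genes all 3 L5 arrays lay above all 6 others, and for 0 genes did all 3 OMN or all 3 DL arrays lie above the rest. The 52 rested on the scaling, and became 18 under quantile normalization, 34 with array medians as centre and 14 with cytosolic ribosomal protein genes as centre. All 3 L5 arrays lay above the others for 6.2% of all genes and for 26.4% of the 1202 genes with a mean above 2000. For OMN these shares were 4.14% and 2.41%, and for DL 3.83% and 5.57%, so low counts are usual there. Against OMN alone, 59 members had L5 arrays that did not overlap and were higher, beside 14.6% of all genes and 43.7% of the bright ones. Against DL alone the count was 57, beside 13.7% and 31.9%. These counts became 26 and 37 under quantile normalization, and with ribosomal centring that against OMN became 17. Bright genes as a group thus also leaned towards L5, with a median difference over the 1202 of 0.17 from OMN and 0.12 from DL. The 1202 include 64 of the members. Among the 1138 bright genes that are not members, all 3 L5 arrays lay above the others for 23.4%. L5 had the highest mean for 68 members, OMN for 7 and DL for 6. DL had the lowest mean for 46 and OMN for 28.

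**Figure D1:**
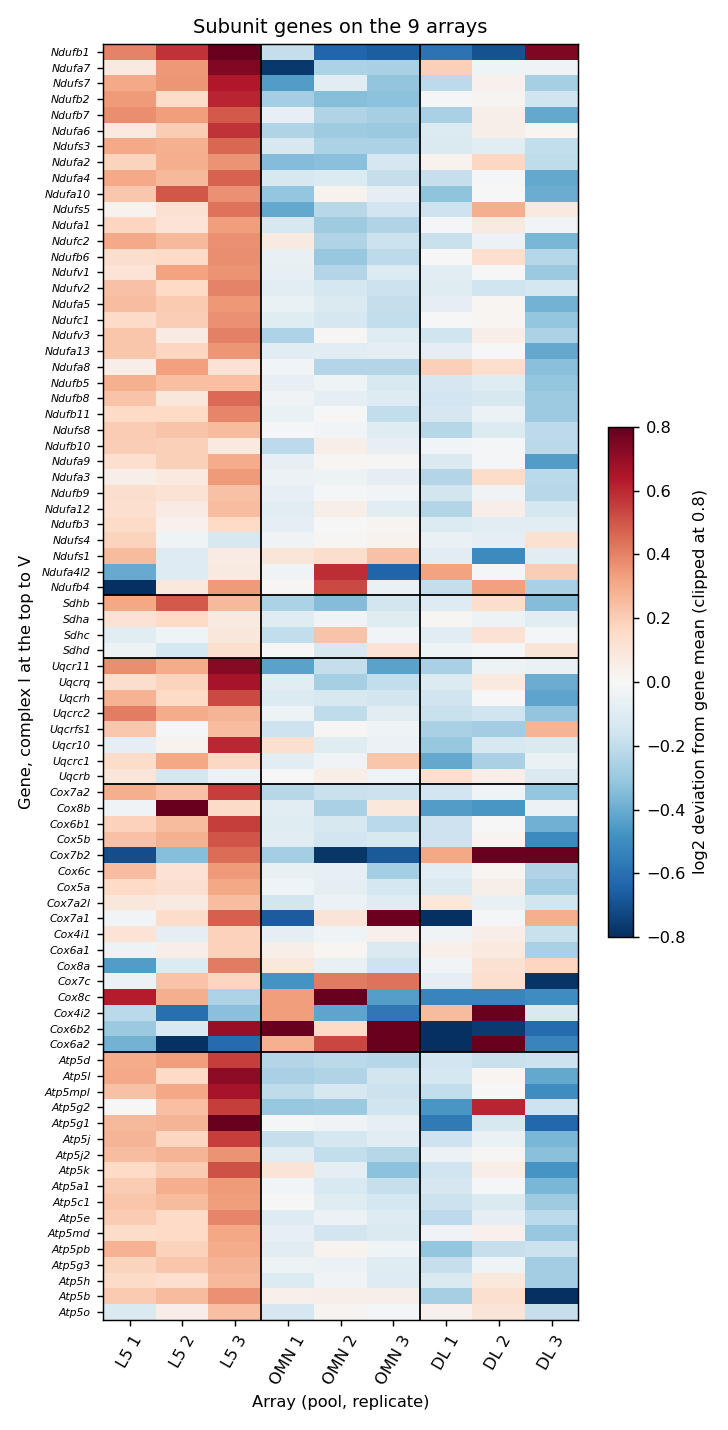
Log2 deviation of each of the 81 genes from its own mean over the 9 arrays, with arrays in columns by pool and genes in rows, complex I at the top to complex V, ordered within a complex by the L5 minus OMN difference; colours are clipped at 0.8. For 52 genes all 3 L5 columns lie above the other 6.

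The arrays of a pool did not move alike. The median deviation of the 81 genes from their own means was 0.18, 0.17 and 0.35 on L5 arrays 1 to 3, -0.086, -0.091 and -0.12 on OMN arrays, and -0.13, -0.00084 and -0.25 on DL arrays. All L5 arrays were above all others, and array 3 carried the most. Without it the median difference was 0.25 from OMN and 0.29 from DL. The low DL arrays, 1 and 3, are those with the higher Gapdh ratio. Without both, the median of L5 against DL was 0.23 and that of DL against OMN was 0.13. Replicates of OMN were the tightest, with a median SD over members of 0.081 on the log2 scale, against 0.14 in L5 and 0.17 in DL.

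**Figure D2:**
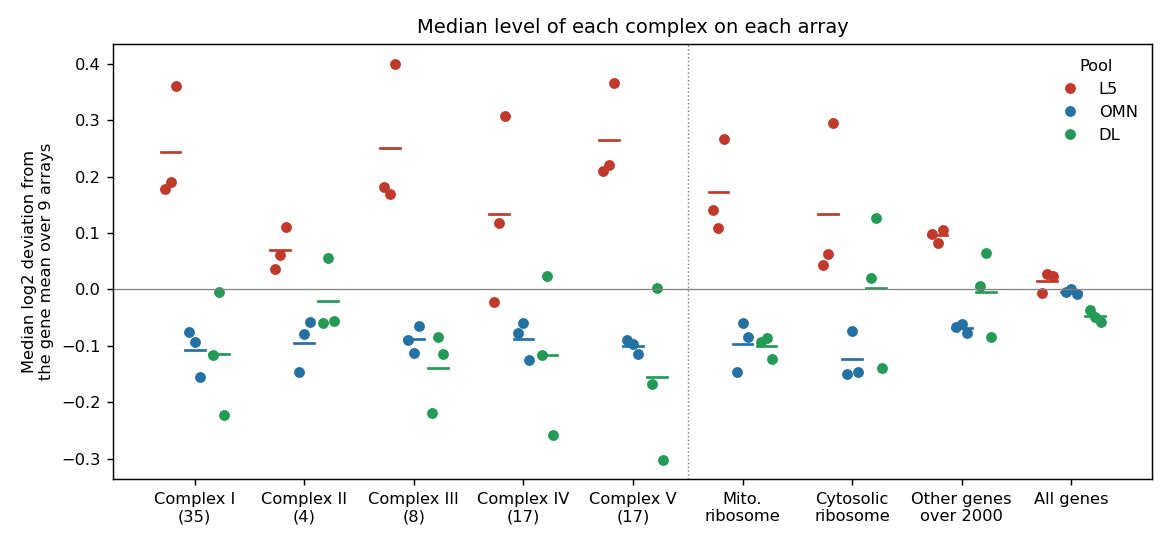
Median log2 deviation of the genes of each complex (number of genes in parentheses) from their means over the 9 arrays; each dot is 1 array, bars are means of the 3 arrays of a pool. To the right of the dotted line are 76 mitochondrial and 48 cytosolic genes chosen by ribosomal protein symbols, the other genes with a mean above 2000, and all genes. The L5 dots lie highest in complexes I, III and V, and also among the mitochondrial ribosomal protein genes and the other bright genes.

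The size of the L5 lead depended on how arrays were put on one scale. Quantile normalization gave medians of 0.076 between L5 and OMN and 0.17 between L5 and DL, with 51 and 60 of 81 genes above 0. Centring each array on its bright non-member genes gave 0.20 and 0.35. Centring on 48 genes with symbols of cytosolic ribosomal proteins gave 0.013 between L5 and OMN and 0.28 between L5 and DL, with 45 and 69 genes above 0. The list was taken by symbol and holds Rps19bp1, which is no ribosomal protein gene, and the pseudogene Rps15a-ps6. Some of its probe sets lay below noise, such as that of Rps16, at 0.6 to 1.4. The effect of these entries on the centring was not tested. The 48 listed genes had themselves a median L5 minus OMN difference of 0.27 and an L5 minus DL difference of 0.12. Relative to that group, subunit genes as a median were brighter in L5 than in DL and about level between L5 and OMN.

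**Figure D3:**
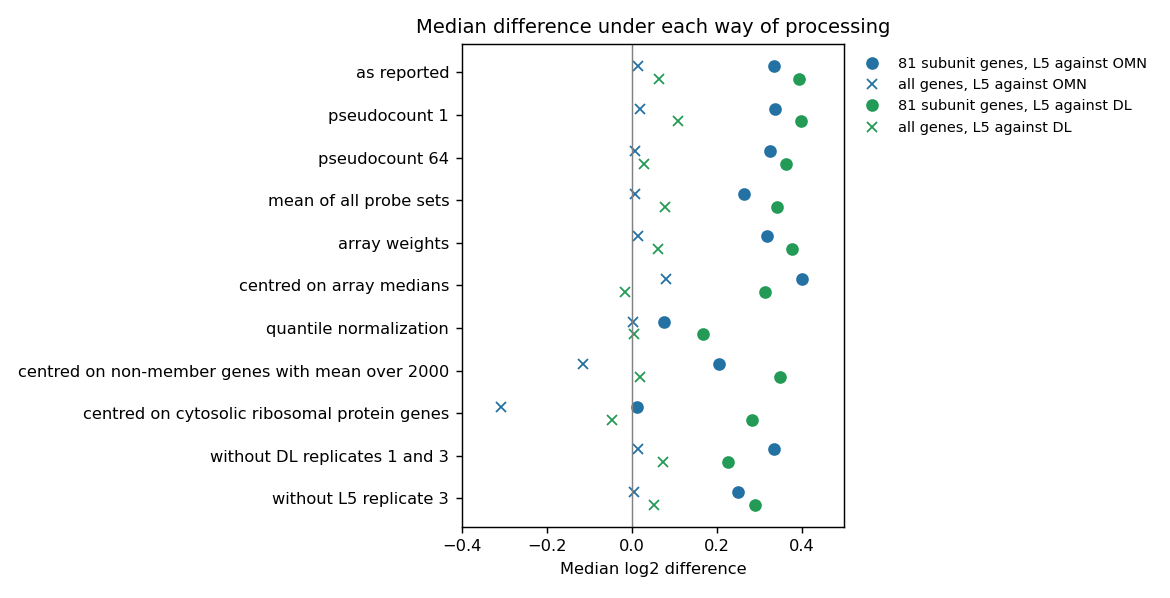
Median log2 difference of the 81 subunit genes (dots) and of all genes (crosses) for L5 against OMN (blue) and L5 against DL (green) under 11 ways of processing. The L5 minus OMN dots range from 0.013 to 0.40 and the L5 minus DL dots from 0.17 to 0.40.

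Many promoters of these genes are known to be bound by NRF1, by GABP, a factor of the ETS family, and by YY1. The 250 bases before the start were searched on both strands for the core letters of these factors in the RefSeq promoter table (GRCm38.p6), which held 66 of the 81 members. The letters CGCATGC (NRF1) were found for 8 of 66 members, 12.1%, against 3.43% of 27025 genes. The letters CCGGAAG (ETS) were found for 12, 18.2%, against 7.83%, and ATGGCG (YY1) for 8, 12.1%, against 6.53%. Matches to different factors did not overlap in the members. At least 1 of the 3 stood before 24 members, 36.4%, and before 4337 of the 27025 genes. The 24 had a median L5 minus OMN difference of 0.42 and the other 42 of 0.32, and for L5 minus DL the medians were 0.40 and 0.41. A match is a run of letters and not a bound site. The sequences below are, for complexes II to V, the member with most kinds of match, ties going to the larger L5 minus OMN difference, and Cox6b2, the gene called between DL and OMN, which has none of the 3. They are written 5′ to 3′ on the strand of the gene, end at the base before the annotated start, and have the matched letters in capitals on either strand.
Sdhb (chr4:140961021-140961270, plus strand): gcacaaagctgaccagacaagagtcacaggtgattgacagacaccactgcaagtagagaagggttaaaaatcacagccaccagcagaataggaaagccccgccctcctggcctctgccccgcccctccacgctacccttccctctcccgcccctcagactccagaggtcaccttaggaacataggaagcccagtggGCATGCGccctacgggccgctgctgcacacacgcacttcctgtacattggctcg
Uqcr11 (chr10:80406822-80407071, minus strand): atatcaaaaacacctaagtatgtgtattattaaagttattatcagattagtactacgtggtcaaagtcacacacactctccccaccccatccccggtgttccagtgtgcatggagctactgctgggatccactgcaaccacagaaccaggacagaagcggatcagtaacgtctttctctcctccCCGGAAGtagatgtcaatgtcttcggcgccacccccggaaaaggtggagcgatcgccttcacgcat
Cox6a1 (chr5:115348959-115349208, minus strand): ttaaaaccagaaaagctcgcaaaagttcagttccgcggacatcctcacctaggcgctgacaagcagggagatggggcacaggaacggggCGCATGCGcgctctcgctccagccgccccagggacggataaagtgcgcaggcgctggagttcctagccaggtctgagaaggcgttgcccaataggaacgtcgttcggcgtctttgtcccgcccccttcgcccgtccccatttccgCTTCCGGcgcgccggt
Atp5j (chr16:84834977-84835226, minus strand): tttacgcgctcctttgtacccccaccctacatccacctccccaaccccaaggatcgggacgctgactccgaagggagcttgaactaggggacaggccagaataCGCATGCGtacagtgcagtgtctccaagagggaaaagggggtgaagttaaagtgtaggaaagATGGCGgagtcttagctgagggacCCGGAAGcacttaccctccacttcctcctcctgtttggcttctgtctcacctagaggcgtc
Cox6b2 (chr7:4753095-4753344, minus strand): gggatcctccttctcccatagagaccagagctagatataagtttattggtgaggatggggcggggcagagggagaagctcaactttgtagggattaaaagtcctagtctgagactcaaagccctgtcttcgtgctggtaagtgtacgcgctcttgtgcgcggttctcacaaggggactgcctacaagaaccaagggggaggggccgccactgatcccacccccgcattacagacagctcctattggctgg

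In the promoter of Atp5j the letters of all 3 factors occurred, NRF1 at 147 and, overlapping it in the palindrome, 146 bases before the start, YY1 at 85 and ETS at 61. Cox6a1 held the same NRF1 palindrome at 161 and 160 bases and an ETS match at 16. Uqcr11 had an ETS match at 66 bases and Sdhb an NRF1 match at 54. Sdhb was tied with Sdhd and Uqcr11 with Uqcrh, each with 1 kind of match, and the choice took the member with the larger difference, so their differences below say nothing of the letters.

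Complex I, the NADH dehydrogenase, had 32 of 35 genes above 0 between L5 and OMN, with a median log2 difference of 0.38, and 33 of 35 between L5 and DL, with a median of 0.35. None was called. Ndufs7 carries the iron-sulfur cluster that hands electrons to ubiquinone. It read 6069, 6261 and 7656 on the L5 arrays, 3595, 4608 and 3945 on the OMN arrays and 4239, 5027 and 4073 on the DL arrays. Every L5 array lay above all others, by 0.72 ± 0.20 (SE) from OMN and 0.58 ± 0.20 from DL, a ratio of 1.64 and 1.50, at an adjusted p of 0.138 and 0.174 in limma.

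Ndufa7, an accessory subunit, read 1376, 1669 and 2203 in L5, 762, 1095 and 1091 in OMN and 1496, 1277 and 1287 in DL. L5 was above OMN on all arrays but overlapped with DL, with differences of 0.81 ± 0.23 and 0.34 ± 0.23. Ndufb1, a small membrane-arm subunit with a dim probe set, had the largest difference in this complex. It read 205, 234 and 333 in L5, 131, 91.9 and 90.4 in OMN and 95.2, 87.3 and 265 in DL, so that 1 DL array reached the L5 range. Its difference was 1.17 ± 0.34 from OMN (adjusted p = 0.159 in limma) and 0.86 ± 0.34 from DL (adjusted p = 0.238).

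The core subunits did not all follow. Ndufs3, Ndufs8, Ndufv1 and Ndufv2, the latter pair in the module that takes electrons from NADH, had L5 minus OMN differences of 0.56, 0.27, 0.40 and 0.40 and L5 minus DL differences of 0.48, 0.41, 0.39 and 0.40. In all of these the L5 arrays lay above the 6 others. Ndufs1, the largest core subunit, read 2066, 1611 and 1812 in L5, 1855, 1912 and 2035 in OMN and 1622, 1212 and 1624 in DL. L5 overlapped with both, and all DL arrays lay below all OMN arrays, with a DL minus OMN difference of -0.39 ± 0.19. Ndufs4, an accessory subunit needed for a stable complex, had means of 5336 ± 593 in L5, 5307 ± 101 in OMN and 5289 ± 411 in DL (SD, n = 3). The brightest of its other probe sets read 501.1, 459.8 and 594.5 in L5, 823.1, 867.8 and 724.6 in OMN and 1083, 628.3 and 948.1 in DL. On it all L5 arrays were lowest, by -0.62 from OMN and -0.73 from DL, so the level of Ndufs4 in L5 is uncertain.

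At the low end of complex I, the probe sets told little. Ndufb4 read 1.9 to 28.9 on the 9 arrays, above noise on 3 of them, and Ndufa4l2, a hypoxia-inducible relative of Ndufa4, read 28.0 to 87.3 with all pools overlapping. Ndufa4 itself, now counted as a subunit of complex IV, read at least 8833 on the L5 arrays, at most 6841 on the OMN arrays and at most 7306 on the DL arrays, so that L5 did not overlap with the rest.

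**Figure D4:**
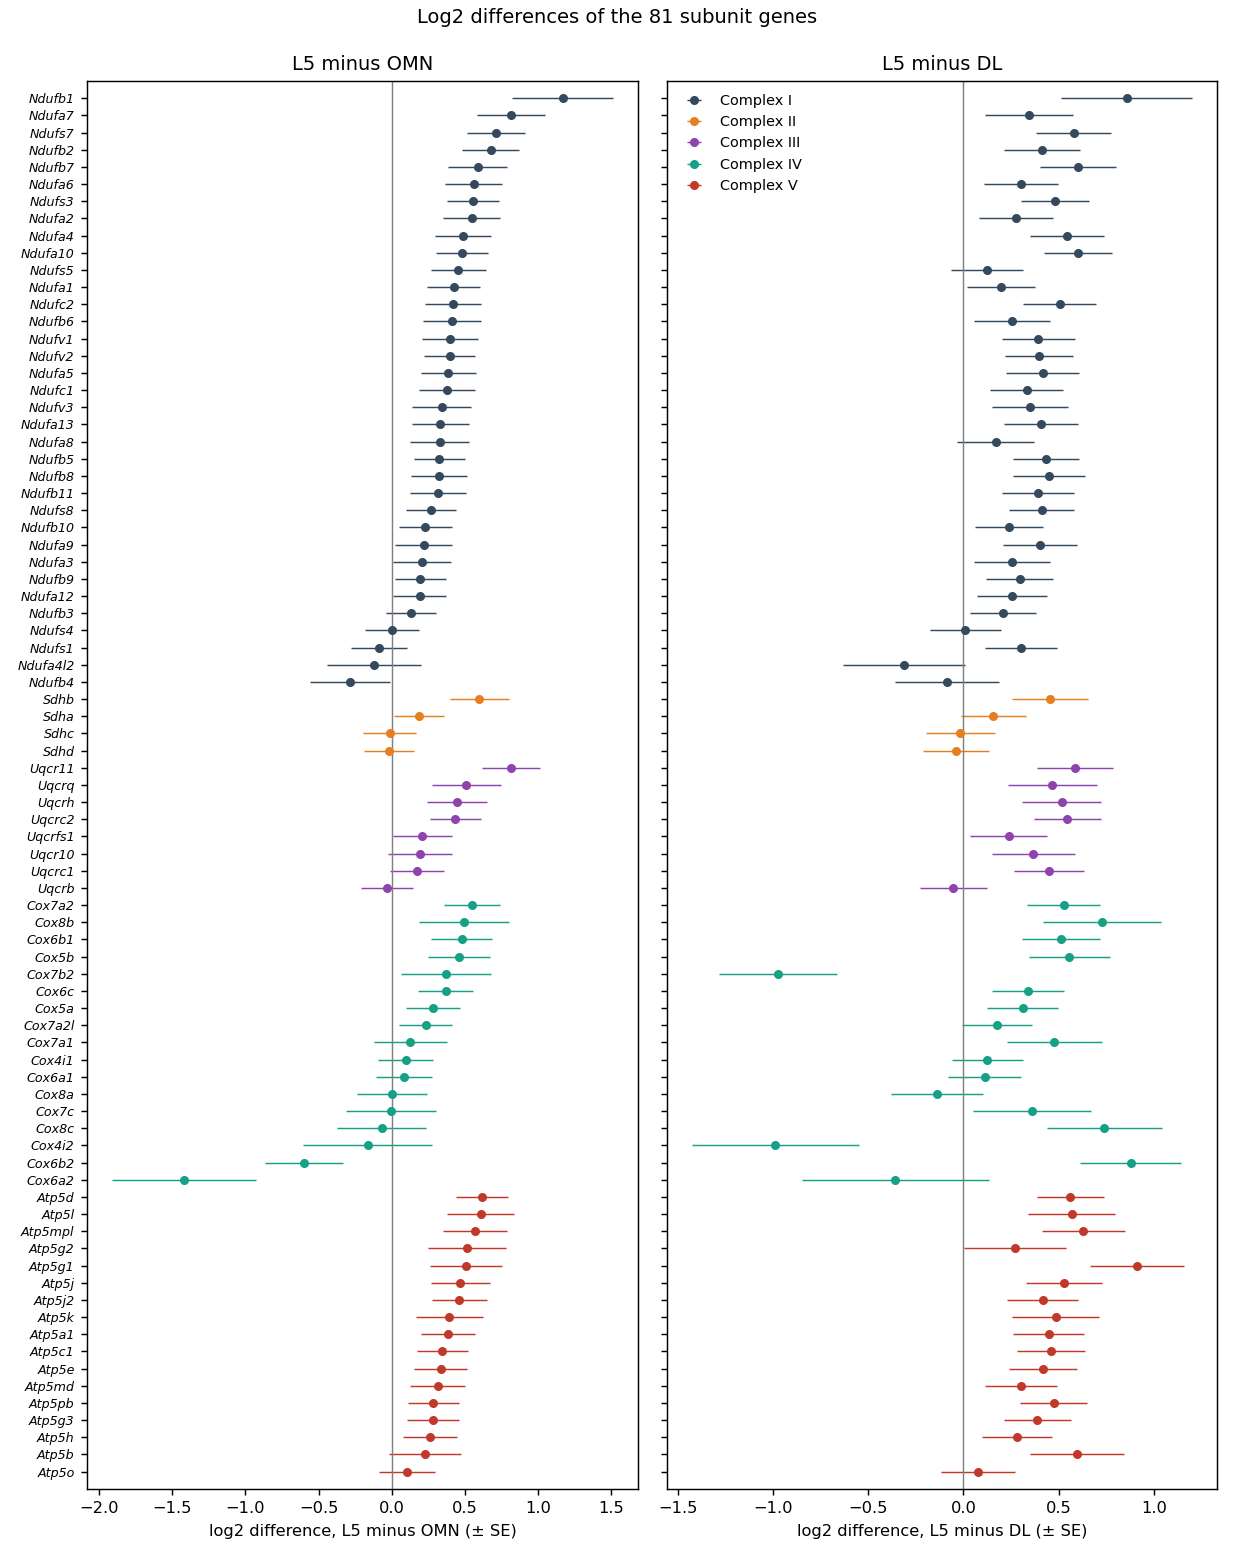
Log2 difference of each of the 81 genes between L5 and OMN (left) and L5 and DL (right) with its standard error from the fit, in the same gene order, coloured by complex. Complexes I and V lie almost wholly to the right of 0, while complex IV spreads from -1.42 to 0.55 on the left.

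Complex II, succinate dehydrogenase, was split. It is made from nuclear genes alone, unlike the others, with Sdha and Sdhb as the catalytic part facing the matrix and Sdhc and Sdhd as the membrane anchor. Sdhb read 4767, 5393 and 4589 in L5, 3219, 3017 and 3463 in OMN and 3566, 4233 and 3010 in DL. All L5 arrays were above the rest, by 0.60 ± 0.20 from OMN (adjusted p = 0.205 in limma) and 0.46 ± 0.20 from DL (adjusted p = 0.276). Sdha, which binds FAD, had L5 arrays above the rest by a small step, 6153 ± 184 in L5 against 5400 ± 147 in OMN and 5520 ± 192 in DL (SD, n = 3). Its next brightest probe set read 3534, 3769 and 3762 in L5, 3388, 3580 and 3459 in OMN and 2865, 2806 and 2881 in DL. There L5 overlapped with OMN, at 0.085, and lay above DL, at 0.37.

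The anchors showed no such step on the probe sets used. Sdhd read 3210, 3004 and 3619 in L5, 3322, 3023 and 3593 in OMN and 3227, 3293 and 3550 in DL, and the 3 pools overlapped. A second probe set of Sdhd went against this one, with 1466, 1362 and 1618 in L5, 2967, 3711 and 2500 in OMN and 4826, 4782 and 4462 in DL. On it L5 lay below both other pools, with an L5 minus OMN difference of -1.02 (adjusted p = 0.0808 in limma) and an L5 minus DL difference of -1.65 (adjusted p = 0.0185), both adjusted over all 34945 probe sets for 1 gene, so the level of Sdhd in L5 is uncertain. On the probe set used, the L5 minus OMN difference was -0.016 ± 0.17, and that of Sdhc was -0.014 ± 0.18. The difference between the catalytic and the anchor genes was not tested. The median of the 4 genes was 0.087 between L5 and OMN and 0.070 between L5 and DL, and it changed sign with the scaling, to -0.096 and -0.045 under quantile normalization.

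Complex III, the cytochrome bc1 complex, had 7 of 8 genes above 0 in both comparisons, with medians of 0.32 and 0.46. Uqcr11, a small subunit, had the lowest adjusted p of all members between L5 and OMN. It read 4037, 3832 and 5173 in L5, 2309, 2722 and 2313 in OMN and 2598, 3023 and 3001 in DL. The L5 arrays stood clear of the other 6, with a difference of 0.82 ± 0.20 from OMN, a ratio of 1.76 (adjusted p = 0.104 in limma), and 0.59 ± 0.20 from DL (adjusted p = 0.174). Without the replicate block it was called between L5 and OMN.

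Uqcrc2, a core protein, had a mean of 6621 ± 338 in L5, 4889 ± 288 in OMN and 4529 ± 259 in DL (SD, n = 3), again with all L5 arrays highest. Its second probe set read 2905, 2831 and 2991 in L5, 2914, 2875 and 2885 in OMN and 2707, 2371 and 2517 in DL. There L5 overlapped with OMN, at 0.0084, and lay above DL, at 0.20. Uqcrc1, the partner of Uqcrc2, was higher in L5 than in DL on all arrays, 0.45 ± 0.18, and overlapped with OMN, 0.17 ± 0.18. Uqcrfs1, the Rieske iron-sulfur protein, overlapped with both, at 0.21 and 0.24. Uqcrb, a ubiquinone-site subunit, was the lowest of the complex and read 6682, 5696 and 6060 in L5, 6231, 6492 and 6102 in OMN and 6856, 6501 and 5769 in DL, with all pools overlapping. Cyc1, the cytochrome of this complex, lies outside the symbol rule and had differences of 0.20 and 0.29 with overlap in both.

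Complex IV, cytochrome c oxidase, was varied, with L5 minus OMN differences from -1.42 to 0.55. Of its 17 genes 12 were above 0 between L5 and OMN, with a median of 0.13, and 13 between L5 and DL, with a median of 0.34. The L5 minus OMN median changed sign with the scaling, to -0.048 under quantile normalization, -0.0016 with centring on bright non-member genes and -0.19 with ribosomal centring. The catalytic subunits of this complex are encoded in mitochondrial DNA, and the nuclear subunits surround them, several as pairs of a widespread and a tissue-specific isoform. Of the widespread isoforms, Cox7a2 had the largest L5 minus OMN difference. It read 12718, 12219 and 15215 in L5, 8847, 9168 and 9227 in OMN and 9325, 10123 and 8366 in DL, a clear gap of 0.55 ± 0.19 from OMN and 0.53 ± 0.19 from DL (adjusted p = 0.223 and 0.202 in limma). Cox5b and Cox6b1 also had every L5 array above the rest, at 0.46 and 0.48 from OMN. Further bright probe sets of Cox5b were split. Differences of 0.47 and 0.36 from OMN, without overlap, were found on the brightest of them. The next read 7804, 6652 and 6548 in L5, 6734, 7200 and 5721 in OMN and 6419, 7472 and 5390 in DL. On it L5 overlapped with both pools, at 0.098 from OMN and 0.13 from DL. Cox4i1, Cox6a1 and Cox8a, which were bright on every array, overlapped between all pools, with L5 minus OMN differences of 0.096, 0.082 and 0.00077.

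The tissue isoforms were dim and went their own ways. Cox6b2, known as the testis form of Cox6b, read 83.0, 96.0 and 181.5 in L5, 213.9, 120.1 and 227.5 in OMN and 45.8, 55.6 and 63.6 in DL. DL lay below all arrays of both other pools, while L5 and OMN overlapped. The DL minus OMN difference was -1.48 ± 0.26, a ratio of 0.36, at an adjusted p of 0.0329 in limma. The call held in 10 of 22 other settings and in 1 of the 9 that leave out an array, that without DL array 2, with adjusted p from 0.0132 to 0.271 over the 22. The difference from L5 was 0.88 ± 0.26 in favour of L5 (adjusted p = 0.138).

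Cox6a2, the heart and muscle form of Cox6a, was lowest in L5. It read 42.5, 27.9 and 33.6 in L5, 76.6, 93.9 and 224.3 in OMN and 22.3, 117.1 and 36.6 in DL. L5 lay below OMN on every array, with a difference of -1.42 ± 0.49 (adjusted p = 0.22 in limma), and in 1 member of 81, this one, the L5 arrays were all below OMN, beside 12.7% of all genes. Muscle markers were low in all pools, with sums over 5 genes of 92.8 to 174.9 in OMN, 151.7 to 670.3 in L5 and 49.7 to 114.5 in DL. Cox7a1, the other muscle form measured above noise on all arrays, read 47.5 to 218.5 with all pools overlapping.

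Other isoforms stood near noise. Cox7b2, another testis form, read 20.1, 34.3 and 51.6 in DL, above noise on all 3, but 1.8, 7.0 and 23.7 in L5 and 8.1, 1.0 and 2.3 in OMN. Its DL minus OMN difference was 1.34 ± 0.31 (adjusted p = 0.0749 in limma). Cox4i2, the lung form of Cox4, exceeded noise on 1 OMN array, at 19.0, and 1 DL array, at 72.9. Cox8b exceeded it on 1 L5 array, at 40.0, and Cox8c on 1 L5 array, at 22.3, and 1 OMN array, at 33.0. Cox7c, which is widespread in tissues, was read here from a probe set at 13.7 to 53.3, so that its level was not well measured.

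**Figure D5:**
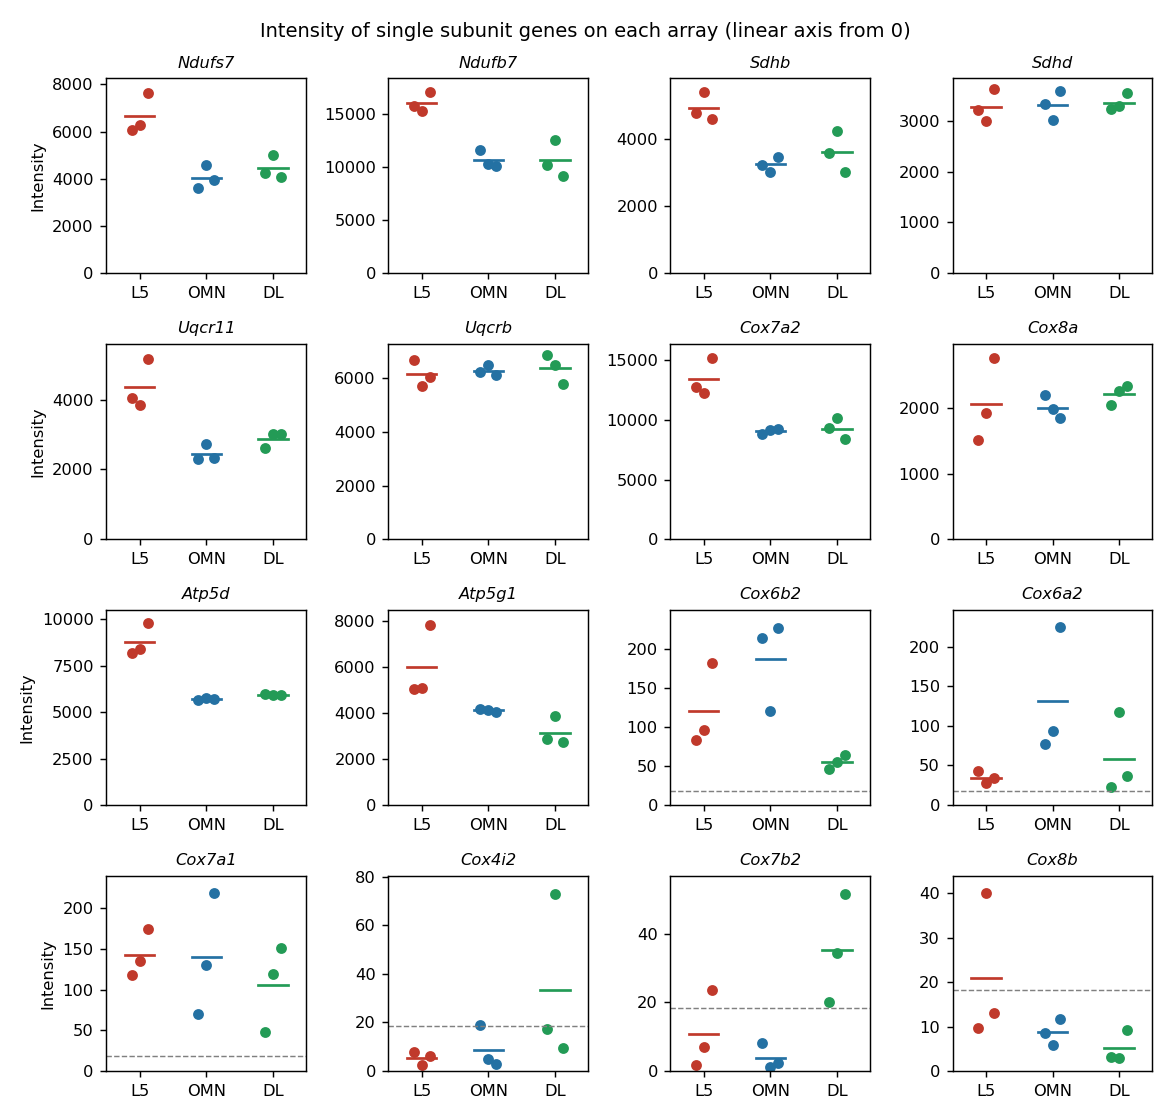
Intensity of 16 subunit genes on each array, on linear axes from 0 with a separate scale for each gene; dots are arrays, bars are means of 3 arrays, and the dashed line is the noise level of 18.3. Ndufs7, Ndufb7, Sdhb, Uqcr11, Cox7a2, Atp5d and Atp5g1 have all L5 arrays above the others, Sdhd, Uqcrb and Cox8a overlap between pools, and Cox6b2 is lowest on the 3 DL arrays.

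Complex V, the ATP synthase, was even, with 17 of 17 genes above 0 in both comparisons and medians of 0.39 between L5 and OMN and 0.46 between L5 and DL. None was called. In 16 of 17 all L5 arrays lay above OMN, beside 14.6% of all genes and 43.7% of those with a mean above 2000. In 15 of 17 they lay above DL, beside 13.7% and 31.9%. Such counts depend on the scaling, and those over all 81 genes fell to 26 and 37 under quantile normalization. Atp5d, the delta subunit of the central stalk, had very tight values outside L5. It read 8185, 8403 and 9774 in L5, 5666, 5745 and 5676 in OMN and 5980, 5898 and 5912 in DL. The L5 lead was 0.62 ± 0.18 over OMN and 0.56 ± 0.18 over DL, ratios of 1.54 and 1.48, with adjusted p of 0.149 and 0.152 in limma. With a pseudocount of 64 in place of 16, Atp5d was called in both.

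The catalytic head followed. Atp5a1 and Atp5b, the alpha and beta subunits, and Atp5c1, the gamma subunit that turns within them, had differences of 0.39, 0.23 and 0.35 from OMN and 0.45, 0.60 and 0.46 from DL, with no overlap of the L5 arrays in any of these. Atp5b varied most within DL, where it read 5624, 7392 and 3821, against 6973, 6977 and 6995 in OMN. Its lowest DL value fell on an array with a high Gapdh ratio. On the probe set used, Atp5o, which joins the head to the peripheral stalk, had the smallest differences, 0.10 ± 0.19 and 0.076 ± 0.19, and overlapped with both. Its second probe set read 4866, 5239 and 5489 in L5, 4269, 4385 and 4274 in OMN and 3953, 4233 and 3842 in DL. There all L5 arrays lay above the rest, by 0.27 from OMN and 0.37 from DL, so the level of Atp5o in L5 is uncertain.

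Subunit c, which forms the rotating ring, is made from 3 genes whose mature peptide is the same. Atp5g1 read 5049, 5096 and 7810 in L5, 4193, 4130 and 4034 in OMN and 2849, 3851 and 2726 in DL. L5 exceeded both pools on all arrays, by 0.91 ± 0.25 over DL, the largest L5 minus DL difference of the 81, with an adjusted p of 0.109 in limma, and by 0.51 ± 0.25 over OMN. Atp5g3 had differences of 0.28 and 0.39 with no overlap. Atp5g2 was above OMN, 0.52 ± 0.27, but overlapped with DL, where it read 740, 1577 and 917. Among the small membrane subunits Atp5mpl had differences of 0.57 and 0.63 and Atp5l of 0.61 and 0.57.

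Between DL and OMN the subunit genes had no settled direction. The difference was above 0 for 34 of 81, beside 45.8% of all genes. That count became 67 with array medians as centre 60 without DL arrays 1 and 3 and 53 without DL array 3, against 22 without DL array 2, 21 under quantile normalization, 17 with centring on bright genes and 11 with ribosomal centring. Medians were -0.0082 in complex I, 0.026 in complex II, -0.049 in complex III, -0.030 in complex IV and -0.061 in complex V. The DL arrays lay all above OMN for 6 members and all below for 9, beside 9.5% and 11.6% of all genes. Apart from Cox6b2, no member was called, and 3 had an unadjusted p under 0.05, beside 16.1% of all genes.

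Other genes of the pathway were read from lists chosen with earlier results of these data known. Their counts at an unadjusted p are to be read against the 16% of all genes between L5 and OMN and the 18.9% between L5 and DL. Of 15 complex I assembly factors 0 were called between L5 and OMN or DL (2 and 6 at an unadjusted p under 0.05 in limma), with medians of 0.29 and 0.42. Of 7 electron carriers and related genes outside the symbol rule, cytochrome c (Cycs) among them, 0 were called (2 and 1 unadjusted), with medians of 0.11 and 0.13. Of 32 assembly factors of the other complexes 1 was called. Pet100, needed to assemble complex IV, was higher in L5 than in OMN. It read 2131, 2190 and 2883 in L5, 885, 1047 and 1022 in OMN and 1787, 1208 and 1971 in DL, and the L5 minus OMN difference was 1.26 ± 0.22, a ratio of 2.40, at an adjusted p of 0.0374 in limma. Of 17 genes of the tricarboxylic acid cycle 0 were called (0 and 3 unadjusted), with medians of 0.18 and 0.36, and of 18 genes of glycolysis and lactate 0 were called (3 and 5 unadjusted), with medians also of 0.18 and 0.36. Of 76 mitochondrial ribosomal protein genes 0 were called (11 and 15 unadjusted), with medians of 0.28 and 0.32. Uncoupling proteins and nucleotide carriers (8 measured), superoxide and peroxide defence (8) and import and membrane structure (17) had 0 called as well (0, 1 and 3 unadjusted between L5 and OMN, 3, 1 and 4 between L5 and DL).

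Regulators of mitochondrial biogenesis held 3 called genes, and none of them was called higher in L5 than in OMN. Ppargc1a, the coactivator PGC-1α that drives transcription of mitochondrial genes, read 633, 667 and 436 in L5, 1907, 1873 and 1937 in OMN and 575, 388 and 722 in DL. OMN stood far above both, with an L5 minus OMN difference of -1.72 ± 0.28 and a DL minus OMN difference of -1.78 ± 0.28 (adjusted p = 0.0299 and 0.0212 in limma). Esrrg, an orphan receptor that PGC-1α coactivates, was lower in DL, at 695 ± 220 against 1772 ± 183 in L5 and 2562 ± 246 in OMN (SD, n = 3; adjusted p = 0.0475 against L5 and 0.0123 against OMN in limma). Its relative Esrrb was lower in DL than in OMN as well (adjusted p = 0.0149 in limma). The genes of the factors searched for in the promoters, Nrf1, Gabpa and Yy1, were not called in any comparison. Of the 17 regulators 1 was called between L5 and OMN, 1 between L5 and DL and 3 between DL and OMN, and the median L5 minus OMN difference of the list was -0.17.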

How the data were processed

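The authors deposited 1 table of processed intensity values on a linear scale for 45101 probe sets on 9 arrays. Trimmed by 2% at both ends, every array had a mean of 250.0, which shows a common scaling. The software that made the values is not named in the labels. Of the probe sets, 34945 named 1 gene in the platform annotation. Each gene was represented by the probe set with the highest mean of log2 values. With linear means the same probe sets stood for the members. The noise level was chosen after the values were seen.

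Log2(intensity + 16) was fitted for all 18193 genes and 9 arrays with limma 3.58.1 in R 4.3.3, with the pool as factor and the replicate number as a block. Per the labels' protocols each animal gave all 3 pools, but the labels do not tie a number to an animal, and p-values otherwise measure the spread between samples. After removal of pool means, same-numbered arrays correlated at -0.073 to 0.062 (9 pairs) and others at -0.066 to 0.056 (18 pairs) over 7120 genes. P-values were adjusted by Benjamini-Hochberg over all genes, and genes under 0.05 are called. Errors of log2 differences are standard errors of the fit. Differences are on the log2(intensity + 16) scale, which understates those of dim genes. The number of arrays limits the precision. The script was tested on simulated data.

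The members and lists were chosen with earlier results of these data known. Named members are those called, the 4 largest differences each way, the largest and smallest in each complex, and members of the core and isoform lists. Ndufs4, Ndufa4, Atp5l, Cox7c, and members named by a changed call were named after their values were seen. So were the further probe sets of Sdha, Sdhd, Ndufs4, Uqcrc2, Cox5b and Atp5o, the range above 2000 and the counts of arrays without overlap. The removal of ribosomal S6 kinases from the ribosomal list and the promoter window and choice also came after the values were seen. The window planned at first, which adds bases after the start, had NRF1, ETS and YY1 matches for 10, 17 and 17 members, 15.2%, 25.8% and 25.8%, against 4.01%, 9.93% and 10.2% of genes.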

Additional observations from a re-analysis of the deposited data

How the results depend on the processing

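With limma, 22 other settings were run, 3 of them (centring on bright non-member genes, centring on cytosolic ribosomal protein genes, and leaving out DL arrays 1 and 3) chosen after the data were seen. The medians of the 81 genes kept their sign in both L5 comparisons. For L5 against OMN the median moved to 0.076 under quantile normalization, 0.20 with centring on bright genes and 0.013 with centring on ribosomal genes, and for L5 against DL to 0.17 under quantile normalization. For DL against OMN it moved to 0.12 with centring on array medians, -0.24 with ribosomal centring and 0.13 without DL arrays 1 and 3. Leaving out each array in turn gave 0.25 to 0.40, 0.29 to 0.45 and -0.12 to 0.075. Array medians as centre shifted the all-gene DL minus OMN median from -0.036 to 0.11, and ribosomal centring shifted the L5 minus OMN median to -0.31. Medians changed sign for complex II between L5 and OMN (-0.096 quantile, -0.044 bright genes, -0.24 ribosomal) and between L5 and DL (-0.045 quantile, -0.010 array medians, -0.042 ribosomal), and for complex IV between L5 and OMN (-0.048, -0.0016 and -0.19 under quantile, bright and ribosomal settings).

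Members called between L5 and OMN numbered 3 with a pseudocount of 64 (Ndufs3, Uqcr11, Atp5d) and 28 with trended robust variances. Without the replicate block 1 was called, Uqcr11, and between L5 and DL the block changed no call. Between L5 and DL 4 were called with a pseudocount of 64 (Ndufa10, Uqcrc2, Atp5d, Atp5pb), 2 with the mean of all probe sets (Ndufb7 higher, Sdhd lower) and 32 with trended variances. Leaving out each array gave 0 to 0 in both. Between DL and OMN 0 were called with a pseudocount of 1, under quantile normalization, with the 2 pools alone and without DL arrays 1 and 3, 2 with trended variances, and 0 to 1 when an array was left out. Without OMN array 1 the member called was Cox7b2. For any difference among pools 0 were called with a pseudocount of 1, quantile normalization, array medians, array weights or without DL arrays 1 and 3, 5 with a pseudocount of 64, 2 with the mean of probe sets, 36 with trended variances and 0 to 0 on leaving out an array.

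All 3 L5 arrays lay above the other 6 for 18 members under quantile normalization, 34 with array medians and 14 with ribosomal centring, beside 4.97%, 5.4% and 1.96% of all genes and 11.1%, 18.2% and 6.82% of bright ones, and for 52 to 54 on leaving out an array. Against OMN alone the count was 26 under quantile normalization and 17 with ribosomal centring, beside 13.4% and 4.53% of all genes, and 59 to 62 on leaving out an array. Against DL alone it was 37 under quantile normalization, 37 with array medians, beside 11.6% and 10.3%, and 57 to 60. Leaving out an array can only keep or raise such counts, so these ranges cannot show that the counts are stable. The share of all genes with L5 arrays above all others rose too, from 6.2% to between 7.04% and 9.81%. The causes were not tested. Over all genes, calls ranged with the setting from 0.451% to 5.2% between L5 and OMN, and 0 genes were called between L5 and DL without DL arrays 1 and 3.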

Other observations

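The 83 probe sets of member genes that were not used above leaned the same way, 65 of 83 above 0 between L5 and OMN with a median log2 difference of 0.23, and 69 between L5 and DL with a median of 0.31. With limma 0 of them were called between L5 and OMN, and between L5 and DL 1 was called higher in L5 and 1, the second probe set of Sdhd, lower. They share arrays and transcripts with the probe sets used and are not independent evidence. Probe sets that name several genes were left out by the rule. One for Ndufs6 and Ndufs6b read 6023, 4591 and 7446 in L5, 4824, 4399 and 4867 in OMN and 3786, 4354 and 3538 in DL, so L5 overlapped with OMN and lay above DL. One for Ndufa11 and Ndufa11b read 2792, 2830 and 4388 in L5, 2355, 2183 and 2219 in OMN and 1936, 2428 and 1828 in DL, with all L5 arrays highest. The dim reading of Ndufb4 came from a probe set of its own, whereas a probe set shared by Ndufb4, Ndufb4b and Ndufb4c read at least 3841 on the L5 arrays and at most 3315 on the OMN arrays and 3688 on the DL arrays, with no overlap. A second probe set of the same 3 genes read 4064, 3747 and 5039 in L5, 3731, 3287 and 3579 in OMN and 3975, 3741 and 3690 in DL, so that there L5 lay above OMN and overlapped with DL. Ndufs5 and its pseudogene shared a probe set whose L5 readings, 6082 to 8710, overlapped with those of OMN, 4913 to 6215, and lay above those of DL, 4565 to 5718.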
